A study of Mus musculus with 13 samples.

Results

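At 200 and 220 min after tamoxifen, a set of transcripts was lower in cultured mouse keratinocytes than at 160, 180 and 240 min, among them Rock1, Arhgap5 and the condensin genes Smc2 and Smc4. The 2 arrays at 200 and 220 min were set against the 3 flanking arrays at 160, 180 and 240 min, 5 of the 13 arrays of a time course. These 2 times were chosen by their measured values, so this contrast is described here and carries no test. Of 7436 genes measured above the filter on dim signals, 481 were lower and 23 were higher at both times.

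The cells were primary keratinocytes carrying, by retrovirus, the DNp63alpha isoform fused to an estrogen receptor domain. Every array shared that fusion, and 1 array was made of untreated cells. The other 12 followed tamoxifen, the ligand that switches such fusions on, at steps of 20 min from 20 to 240 min. Each time had 1 array of biotin-labelled cRNA from total RNA, and nothing in the labels says that the arrays came from separate cultures or animals. Age and strain of the animals are not given in the labels. Neighbouring times therefore stand in for replicates, and any spread given below is a spread between arrays. Because RNA was measured in bulk, fewer cells of a type and less RNA per cell cannot be told apart.

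p63 is the transcription factor that keeps the basal layer of the epidermis proliferative and committed to its lineage, and DNp63alpha is its main isoform there. Basal keratinocytes divide, and dividing cells need the SMC complexes, ring-shaped ATPases that fold and hold chromosomes. Condensin compacts chromosomes for mitosis, cohesin holds sister chromatids together, and the SMC5/6 complex acts in DNA repair. The level of an mRNA within an hour depends on both its synthesis and its decay, so transcripts with fast turnover can move quickly.

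A gene was counted as lower where both arrays lay below all 3 flanking arrays and the means differed by at least 1.2-fold on the log2(intensity + 16) scale, and as higher by the mirrored rule. By this rule 6.47% of genes tested were lower and 0.309% were higher. At 1.5-fold 157 genes (2.11%) were lower and 0 were higher, and 29 were lower by at least 2-fold. The median difference of the lower set was -0.48 on the log2 scale, or 1.39-fold, and that of the higher set was 0.28, or 1.21-fold. Over all genes tested the median difference was 0.05. Without a limit of size, 1026 genes (13.8%) had both arrays below the flanks and 2289 (30.8%) had both above, so small differences lay mostly upward and large ones downward. These counts come from the contrast that chose the times, and nothing is read from them.

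Promoters of genes that were lower together, and of the gene with the largest higher difference, are printed first, as context for the motif counts that follow. The sequences are RefSeq's, on build GRCm38.p6, from 250 bases before to 50 bases after the gene start, with each match to a searched motif in capitals. Smc2 encodes the SMC2 subunit of condensin, lies on the plus strand of chromosome 4, and has its promoter window at chr4:52438971-52439270. Smc6 encodes a subunit of the SMC5/6 complex, lies on the plus strand of chromosome 12, and has its window at chr12:11265636-11265935. Chtf8 encodes a subunit of an alternative clamp loader of DNA replication, lies on the minus strand of chromosome 8, and has its window at chr8:106893544-106893843.
Smc2: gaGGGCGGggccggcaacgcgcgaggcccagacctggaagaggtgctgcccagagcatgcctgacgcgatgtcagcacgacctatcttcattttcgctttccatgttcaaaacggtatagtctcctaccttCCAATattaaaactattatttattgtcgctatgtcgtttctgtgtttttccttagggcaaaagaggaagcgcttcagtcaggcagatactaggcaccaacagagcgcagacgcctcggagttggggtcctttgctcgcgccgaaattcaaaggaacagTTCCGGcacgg
Smc6: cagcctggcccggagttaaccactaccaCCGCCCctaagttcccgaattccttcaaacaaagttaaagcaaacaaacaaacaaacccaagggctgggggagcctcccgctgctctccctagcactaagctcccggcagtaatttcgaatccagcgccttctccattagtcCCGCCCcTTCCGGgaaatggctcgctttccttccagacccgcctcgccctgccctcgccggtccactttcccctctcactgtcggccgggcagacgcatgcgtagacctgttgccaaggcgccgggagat
Chtf8: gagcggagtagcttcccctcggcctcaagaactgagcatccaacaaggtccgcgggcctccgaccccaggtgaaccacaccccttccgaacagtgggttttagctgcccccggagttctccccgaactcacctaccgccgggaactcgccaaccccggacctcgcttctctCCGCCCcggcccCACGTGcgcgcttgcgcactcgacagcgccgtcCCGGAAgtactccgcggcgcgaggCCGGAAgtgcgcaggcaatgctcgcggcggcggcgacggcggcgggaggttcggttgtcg

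The motifs searched on both strands were the TATA box (TATAAA), the CRE core (TGACGT), the AP-1 site (TGANTCA), the ETS core (CCGGAA), the CCAAT box (CCAAT), the GC box (GGGCGG) and the E-box (CACGTG). Some of these, such as the CRE core and the E-box, can overlap at their ends, and others can lie side by side, as do a GC box and an ETS core in the Smc6 window. The window nearest to the gene start was found for 390 of the 481 lower genes, 19 of the 23 higher genes and 6066 of the 7436 genes tested. An ETS core was present in 33.6% of the lower genes' promoters and in 31.0% of all tested, a GC box in 71.5% and 67.5%, and a CCAAT box in 35.9% and 38.6%. A CRE core was present in 15.9% and 12.8%, an E-box in 12.1% and 10.8%, a TATA box in 5.38% and 7.14%, and an AP-1 site in 3.85% and 4.81%. In all 27025 windows of the RefSeq table the shares were 15.2% for the ETS core, 35.9% for the GC box, 38.0% for the CCAAT box, 7.59% for the CRE core, 7.24% for the E-box, 14.2% for the TATA box and 7.92% for the AP-1 site. The shares in the lower genes lay closer to those of the genes tested than to those of the whole table for every motif searched except the CCAAT box. The median GC content was 64.3% in the lower genes' windows and 61.3% in those of all genes tested. A match describes letters in a window and is not a binding site.

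Rock1, which encodes a kinase that drives actomyosin contraction, had the largest difference of all genes tested. Its log2 level was 9.59 at 160 min, 9.99 at 180 min, 8.71 at 200 min, 7.85 at 220 min and 10.17 at 240 min. The mean at 200 and 220 min was 3.12-fold below the flanks (-1.64 on the log2 scale), with an SD of 0.30 over the 3 flanking arrays. The 220 min array was the lowest of the 13, and by 240 min the gene stood above both 160 and 180 min. Taken alone, the 220 min array gave a difference of -2.07 and the 200 min array one of -1.21. Both other Rock1 probe sets above the filter on dim signals were lower too, the smaller difference being -1.45.

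Arhgap5, which encodes a GTPase-activating protein, was next. It read 9.87, 10.36, 9.09, 8.34 and 10.47 at 160, 180, 200, 220 and 240 min, a difference of -1.52 or 2.87-fold. Its flanking SD was 0.32. Like Rock1 it was lower at 220 than at 200 min, and neither low array overlapped any other array of the course.

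Of the condensin genes, Smc2 and Smc4 showed the same profile. Smc2 read 9.84, 10.21, 8.90, 8.47 and 10.30 at 160, 180, 200, 220 and 240 min, 2.69-fold lower at the pair of times (-1.43; flanking SD 0.25). Smc4, its partner in condensin, read 9.64, 10.03, 8.82, 8.27 and 10.18, 2.65-fold lower (-1.41; flanking SD 0.28). In both genes the 5 values did not overlap between the sides, and 160 min was the lowest flank. The non-SMC condensin subunits Ncapg (-0.70) and Ncapg2 (-0.91) were also in the lower set.

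Cohesin and SMC5/6 genes followed. Stag2, a core cohesin subunit, read 9.63, 10.09, 8.83, 8.49 and 10.28, a difference of -1.34. Smc6 read 9.20, 9.50, 8.53, 7.90 and 9.70, a difference of -1.25, and its partner Smc5 had a difference of -0.84. The cohesin ring genes Smc3 (-0.98) and Smc1a (-0.35), the alternative subunit Stag1 (-0.66) and the cohesin regulator Pds5a (-0.42) were lower too. So was Esco1 (-1.17), the acetyltransferase that stabilises cohesin on chromatin. In all, 12 of the 19 tested genes of SMC complexes were lower (63.2%) with a median difference of -0.66, against 6.47% and 0.05 over all genes. The other tested genes of the list did not meet the rule, and the highest difference was 0.07. This list was drawn up after the values were seen, so its count describes these members only. For Smc6, averaging all probe sets of the gene gave a smaller difference, -0.80.

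**Figure D1:**
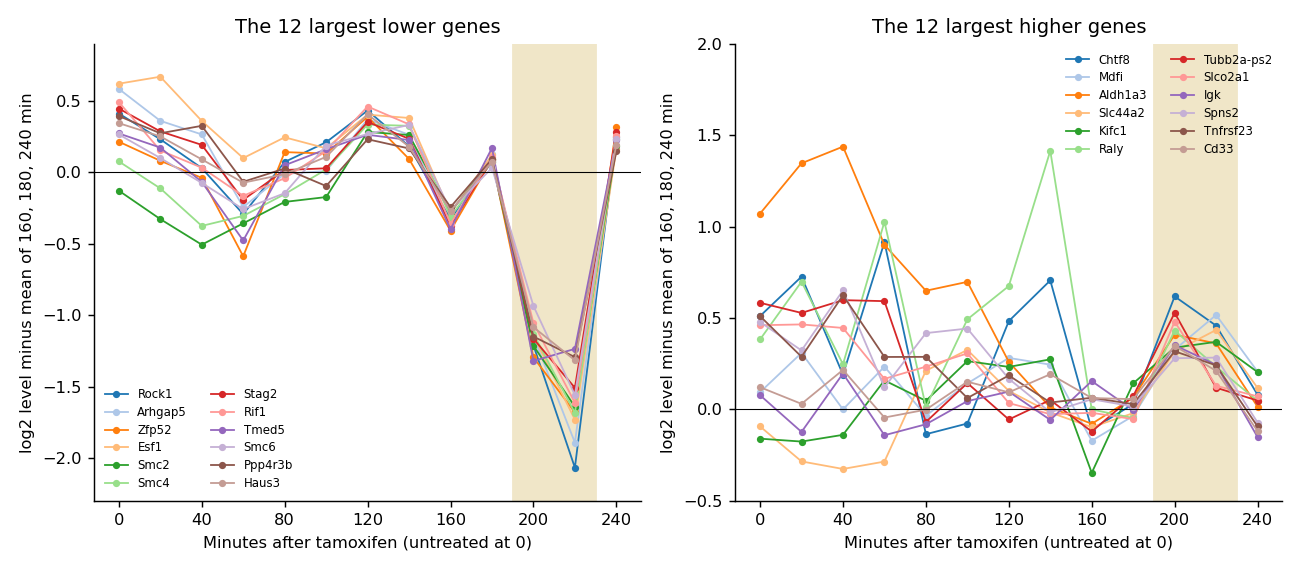
Log2 level minus the mean of the 160, 180 and 240 min arrays, against minutes after tamoxifen (untreated at 0), for the 12 largest lower genes on the left and the 12 largest higher genes on the right, 1 line per gene and 1 point per array, with 200 and 220 min shaded. On the left all 12 genes reach their lowest values of the course in the shaded arrays. On the right Raly, Aldh1a3, Chtf8, Spns2, Tnfrsf23 and Tubb2a-ps2 stand higher at some earlier times than at 200 and 220 min.

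The remaining members of the 12 largest lower genes act in other parts of the cell. Zfp52, a zinc finger gene, read 9.28, 9.78, 8.39, 8.01 and 10.01 over the 5 times (-1.49), but -1.02 when its probe sets were averaged. Esf1, a nucleolar protein of pre-rRNA processing, read 9.54, 9.94, 8.68, 8.09 and 9.98 (-1.44). Rif1, which sets replication timing and steers double-strand break repair, read 8.97, 9.44, 8.28, 7.72 and 9.58 (-1.33). In these genes, as in Rock1, 220 min was the lower of the pair. Tmed5, a cargo receptor between endoplasmic reticulum and Golgi, was an exception, with 9.12 at 200 min and 9.20 at 220 min against 10.04, 10.61 and 10.66 in the flanks (-1.28). Ppp4r3b, a regulatory subunit of protein phosphatase 4, had a difference of -1.22, or -0.88 with its probe sets averaged. Haus3, a subunit of the augmin complex that nucleates microtubules inside the spindle, had a difference of -1.20. All 12 genes had both arrays below all 11 other arrays of the course.

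By number, genes of mitosis formed the largest group of lower genes among the 40 broad functional and marker lists. Of 34 tested G2/M and mitosis genes 10 were lower (29.4%, beside 6.47% of all genes) and 0 higher, and the list's median was -0.09. Mki67, the proliferation antigen that coats mitotic chromosomes, read 9.84, 10.01, 9.30, 8.76 and 10.09 at 160, 180, 200, 220 and 240 min (-0.95). Cenpf, a kinetochore protein, read 8.21, 8.44, 7.80, 7.38 and 8.63 (-0.84). Bub1, the spindle checkpoint kinase, read 9.37, 9.48, 8.71, 8.76 and 9.53 (-0.73), a level that it also had in the first hour, when it read between 8.71 and 9.01. The others were Kif11 (-0.63), Nusap1 (-0.50), Top2a (-0.48), Ect2 (-0.39), Hmmr (-0.33), Ttk (-0.33) and Kif23 (-0.30). Of 31 tested G1/S and replication genes 3 were lower (9.68%), nearer to the share of all genes. They were Ccne2 (-1.06), the cyclin E2 that drives S-phase entry, and Pola1 (-0.63), the catalytic subunit of polymerase alpha. Rfc1 (-0.44), the large subunit of the clamp loader, was the other.

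The spindle itself was represented outside that list. Of 18 tested centrosome and spindle assembly genes, again chosen after their values were seen, 6 were lower (33.3%). They were Haus3, Aspm (-0.66), Pcm1 (-0.61), Haus6 (-0.58), Cep350 (-0.46) and Cep55 (-0.37). Among 41 symbol families with at least 15 tested genes, the kinesin motors (Kif) had 6 lower of 18 (33.3%, beside 6.47% of all genes). Kif18a stood at -1.15 and Kif5b, the conventional kinesin of cargo transport, at -1.03. Ubiquitin-specific proteases (Usp) had 6 of 27 (22.2%), zinc finger genes (Zfp) 17 of 80 (21.25%) and tripartite motif genes (Trim) 4 of 22 (18.2%). In 13 of the 41 families 0 genes were lower, among them Nup with 15 tested, Cdc with 23 and Cdk with 17. These named families were singled out after their values were seen.

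RNA-processing genes came next by number. Of 60 tested splicing factors 8 were lower (13.3%, beside 6.47% of all genes), with a list median of -0.07. Luc7l3, a U1 snRNP-associated protein, read 9.80, 9.95, 9.11, 8.95 and 9.96 over the 5 times (-0.88). Rbm39, a splicing factor of the U2AF family, had a difference of -0.71, and Clk1, the kinase that phosphorylates SR proteins, one of -0.58. Hnrnph1 (-0.53), Rbm25 (-0.46), Nktr (-0.45), Prpf38b (-0.34) and Srsf1 (-0.29) were the other members. Of 39 ribosome biogenesis genes 5 were lower (12.8%), led by Nop58 (-0.63), a core protein of box C/D small nucleolar RNPs. Ddx10 (-0.61) and nucleolin, Ncl (-0.34), were among them. Of 30 translation factors 4 were lower (13.3%): Eif5b (-0.58), the ribosomal subunit joining factor, Eif3a (-0.43), Eif5 (-0.37) and Eif2s2 (-0.36). Other bright Eif3a probe sets differed by -0.48, -0.38 and -0.33, and of these only the one at -0.48 met the rule.

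Both nuclear long noncoding RNAs best known from speckles and paraspeckles were lower. Malat1, a speckle RNA, read 8.11, 8.55, 7.60, 7.36 and 8.56 (-0.93, or 1.91-fold), and 3 of its other probe sets above the filter on dim signals were lower as well, by -0.82, -0.72 and -0.43. Neat1, the scaffold of paraspeckles, read 10.23, 10.45, 9.83, 9.73 and 10.38 (-0.57). The pair differed in the first hour: Neat1 read 9.65 at 60 min, below its values at 200 and 220 min, whereas no earlier Malat1 value was below its 200 and 220 min values. Only 4 genes of that list were tested.

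Chromatin regulators were lower in 5 of 24 tested cases (20.8%, list median 0.01): Arid4b (-0.93), a subunit of the Sin3 corepressor complex, Zfp148 (-0.62), Rbbp6 (-0.43), Chd1 (-0.34), a chromatin remodeller, and Kmt2e (-0.33). With the probe sets of each gene averaged, the count was 3. A dimmer Rbbp6 probe set read 8.12, 8.22, 7.88, 8.19 and 8.06, overlapping the flanks (-0.10). The list of nuclear pore and transport genes, chosen after the values were seen, had 5 lower of 30. They were Ranbp2 (-1.12), a nucleoporin of the cytoplasmic filaments, the importins Ipo7 (-0.88), Kpna3 (-0.61) and Tnpo1 (-0.50), and the exportin Xpo1 (-0.50). Membrane traffic, chosen likewise, had 8 of 41, from Tmed5 (-1.28), the early endosome tether Eea1 (-0.90) and the golgin Trip11 (-0.83) to Vps4b (-0.27). Ubiquitin conjugation and ligase genes, also chosen so, had 5 of 46. They included Cops2 (-1.03), a subunit of the COP9 signalosome, and Ube2v2 (-1.03), a ubiquitin-conjugating enzyme variant. Ube3a, the E3 ligase E6AP, read 9.05 and 8.73 against 9.66 to 10.03 in the flanks. The shares were 16.7% for nuclear pore and transport, 19.5% for membrane traffic and 10.9% for ubiquitin genes, beside 6.47% of all genes.

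The circadian list was the only one with members on both sides. Clock, the activator at the core of the clock, read 8.42, 8.64, 7.69, 7.73 and 8.72 at 160, 180, 200, 220 and 240 min (-0.88). A dimmer Clock probe set did not follow it, reading 7.80, 7.99, 8.19, 8.06 and 8.11 (0.15), so the gene's level at these times rests on the probe set chosen. Rora (-0.54) and Nr1d2 (-0.52), a nuclear receptor that activates and one that represses through the same response element, were lower. Per2, a repressor of Clock, was higher at 0.27, just past the limit.

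**Figure D2:**
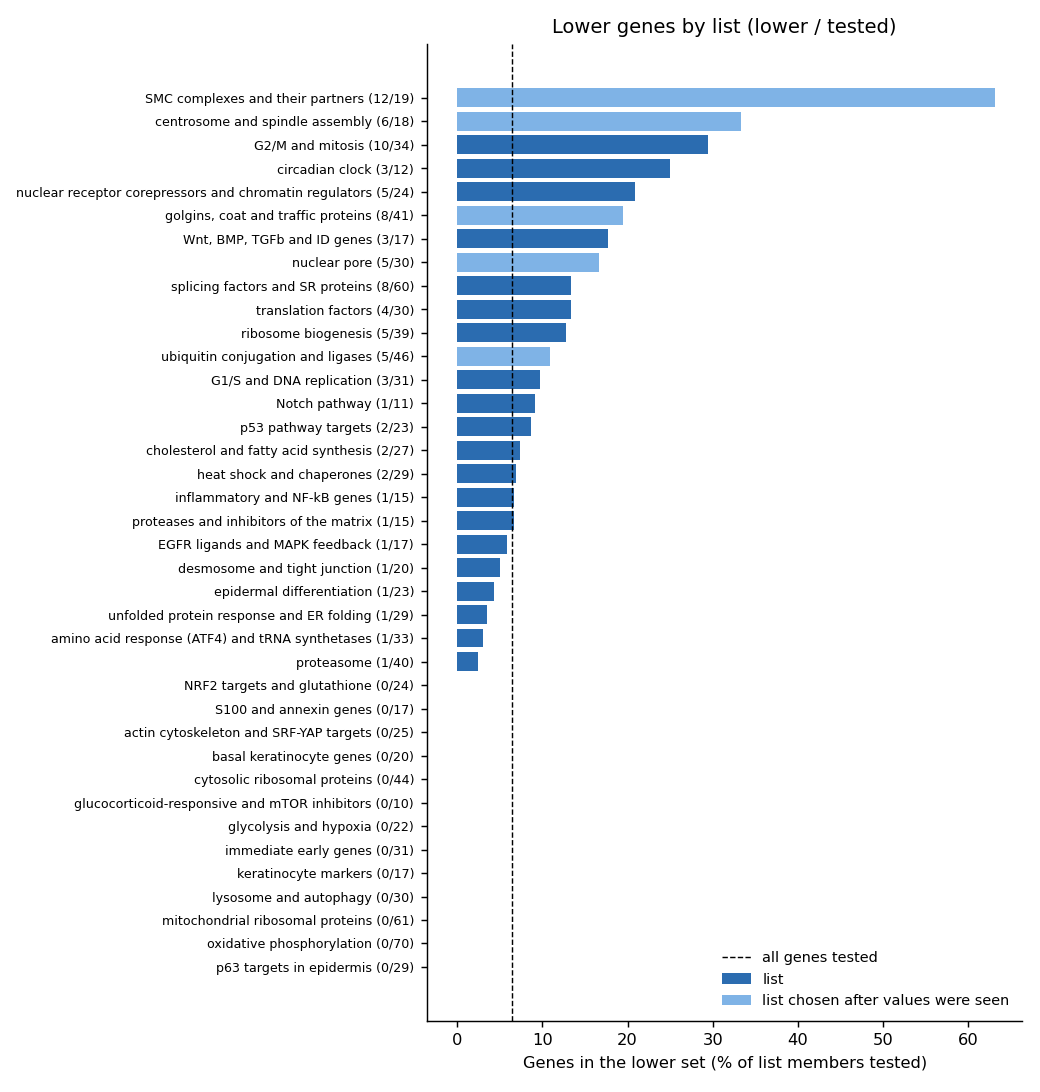
Share of tested list members in the lower set, in percent, for lists with at least 10 genes tested, with the number lower and the number tested in parentheses, light bars for lists drawn up after the values were seen and a dashed line at the 6.47% of all genes tested. SMC complexes stand at 63.2% and G2/M genes at 29.4%; oxidative phosphorylation, mitochondrial ribosomal and cytosolic ribosomal genes stand at 0.

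Signalling genes followed. Of 17 Wnt, BMP and TGF-beta genes 3 were lower (17.6%, beside 6.47% of all genes): Tgfbr1 (-0.50), the type I TGF-beta receptor, Inhba (-0.48), the activin A subunit, and Skil (-0.42), a repressor of SMAD signalling. With probe sets averaged, the count was 1. Ptgs2, the inducible cyclooxygenase of prostaglandin synthesis, read 10.36, 10.14, 9.68, 9.51 and 9.94 (-0.55). It had not come back by 240 min, where 0.47 of its difference remained. A dimmer Ptgs2 probe set read 9.12, 8.95, 8.88, 8.58 and 8.60, overlapping the flanks (-0.16), so the call rests on the probe set chosen. Ereg, an EGFR ligand, differed by -0.29, Adam10, the protease that cleaves Notch and EGFR ligands, by -0.30, while its other bright probe sets differed by -0.20 and 0.000791 and did not meet the rule. The p53 targets Rrm2b and Pmaip1 differed by -0.31 and -0.29. Shares of lower genes were 8.70% in the p53 list, 5.88% in the EGFR list and 6.67% in the inflammatory list, near the 6.47% of all genes. Rptn, a cornified envelope protein of the epidermis, was the differentiation gene in the lower set, with 9.66, 9.94, 8.98, 9.10 and 9.63 (-0.70). Dsc2, a desmosomal cadherin, differed by -0.29, but its other bright probe set by -0.00376, overlapping the flanks. With probe sets averaged, the inflammatory, Notch, desmosome and epidermal differentiation lists each had 0 lower genes.

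In lipid synthesis and heat shock lists the share of lower genes was near that of all genes, at 7.41% and 6.90%. Idi1 (-0.54), an isomerase of cholesterol synthesis, and Elovl6 (-0.39), a fatty acid elongase, were the lower genes among 27 of lipid synthesis. A dimmer Idi1 probe set read 9.72, 9.81, 9.01, 9.71 and 9.68 (-0.38), so its 220 min value lay within the flanks. The cytosolic chaperone Hsp90aa1 (-0.44) and the co-chaperone Dnajb4 (-0.33) were lower among 29 heat shock genes. Further single members were Hsp90b1 (-0.38), the Hsp90 of the endoplasmic reticulum, and Psmc6 (-0.40), a proteasomal ATPase. Eprs (-0.44), a tRNA synthetase, and Serpinb2 (-0.29), a protease inhibitor of keratinocytes, were others. Other bright probe sets of Dnajb4 (-0.22), Hsp90b1 (-0.22) and Eprs (-0.18 and -0.25) lay below the flanks but short of the fold limit.

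Many lists held no lower gene. Counts of 0 were found among 70 oxidative phosphorylation genes, 61 mitochondrial and 44 cytosolic ribosomal proteins, 31 immediate early genes, 30 lysosomal and autophagy genes, 29 p63 targets, 25 actin genes and SRF or YAP targets, 24 NRF2 targets, 22 glycolytic genes and 20 basal keratinocyte genes. In total 19 of the 40 broad lists had 0 lower genes. Of the 920 list genes tested 58 were lower (6.30%), near the 6.47% of all genes. With probe sets averaged, the p63 target, NRF2 and basal lists each had 1 lower gene, and with arrays centred on their medians the actin and glycolysis lists had 1 each.

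On their representative probe sets, the genes that define these cells were not in the lower set. Krt14, a basal keratin, read 14.14 at 160, 14.17 at 180, 14.15 at 200, 14.15 at 220 and 14.13 at 240 min, and Krt5, its partner, differed by -0.03. Gapdh and Actb differed by 0.01 and 0.02. Trp63 encodes p63, and whether its probe sets also read the introduced fusion is not given in the labels. Its representative probe set read 10.42, 10.40, 10.35, 10.25 and 10.35, a difference of -0.09. The other probe sets differed by -0.42 and -0.28 and met the rule for lower. The immediate early genes Jun (0.01), Fos (0.18) and Egr1 (0.19), and Myc (0.01), did not depart, nor did the chemokine Cxcl5 (-0.10).

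Markers of other cell types were examined beside these counts. Keratinocyte markers were tested in 17 of 18 cases on the array, with 0 departed and a summed intensity of 120947 to 121244 at 200 and 220 min against 120150 to 123306 in the flanks. With probe sets averaged, 1 keratinocyte marker was lower. Melanocyte markers were above the filter in 8 of 11 cases, with summed intensities over all on the array of 7439 to 7550 against 7160 to 7397 in the flanks; the melanin enzyme gene Dct lay at the 93.1 percentile of level. The sums were 8755 to 9001 against 8086 to 8640 for 19 fibroblast markers, 3273 to 3344 against 2993 to 3080 for 19 immune markers, 4850 to 5481 against 4844 to 5010 for 14 endothelial and muscle markers, and 6744 to 7606 against 6712 to 6791 for 14 hair follicle and sebaceous markers. Of these lists 8 fibroblast, 3 immune, 3 endothelial and muscle, and 7 hair follicle and sebaceous genes were above the filter; the leukocyte gene Ptprc lay at the 1.18 percentile of level, the endothelial gene Cdh5 at 8.07 and the fibroblast gene Dcn at 17.4. For melanocyte, fibroblast and immune markers the sums of both arrays stood above all flanks, and the median difference over all genes was also upward. These sums include the genes below the filter, most of the fibroblast and immune markers. In the main setting 0 of the markers departed, and with arrays centred on their medians 1 melanocyte marker was lower. The part of these cell types in the result was not tested.

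The higher set was small and close to the limit. With 1 array left out its count was 54 without 200 min, 256 without 220 min, 60 without 160 min, 29 without 180 min and 42 without 240 min. Chtf8 read 9.18, 9.32, 9.91, 9.75 and 9.37 at 160, 180, 200, 220 and 240 min, 1.45-fold higher (0.54; flanking SD 0.10). Its earlier values spread from 9.16 at 80 min to 10.21 at 60 min, so both low and high levels had occurred before. With 140 min in place of 160 min among the flanks its difference was 0.27. Mdfi, an inhibitor of myogenic factors, had its highest values of the course, 8.24 and 8.43, against 7.74, 7.87 and 8.12 in the flanks (0.42). Aldh1a3, a retinoic acid-synthesising dehydrogenase, read 9.42, 9.56, 9.90, 9.86 and 9.51 (0.39), below its 10.93 at 40 min. Slc44a2, a choline transporter-like protein, differed by 0.38 and Kifc1, a minus-end directed spindle kinesin, by 0.35. The other bright probe sets of Aldh1a3 (0.25 and 0.24) and Slc44a2 (0.14 and 0.17) did not meet the rule.

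Members of the higher set depended on the arrays and probe sets chosen. Raly, an RNA-binding protein of the hnRNP family, differed by 0.33, but by -0.14 with 140 min in place of 160 min among the flanks, because it read 9.73 at 140 min. Slco2a1, a prostaglandin transporter, read 9.38 at 200 min and 9.03 at 220 min against 8.84 to 8.97 in the flanks (0.30). Spns2, a sphingosine-1-phosphate transporter (0.28), Tnfrsf23, a decoy TRAIL receptor (0.28), and Cd33, a sialic acid-binding receptor (0.28), were followed by 11 genes nearer to the limit. The probe sets assigned to the pseudogene Tubb2a-ps2 (0.32) and to the immunoglobulin kappa locus Igk (0.30) may share sequence with other genes and are uncertain. Of the 23 higher genes, 7 had both arrays above all 11 others, and 7 lay within the range of the arrays up to 60 min.

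Genes at the limit show how it divides them. Yes1, a SRC-family kinase, was just inside the lower set with 9.42, 9.54, 9.26, 9.29 and 9.68 at the 5 times (-0.27), and Cbx5, heterochromatin protein 1 alpha, was just outside with 9.76, 9.72, 9.60, 9.39 and 9.79 (-0.26). Lce1b, a late cornified envelope gene, was just inside the higher set and Cidea, a lipid droplet protein, just outside, each with a difference of 0.26. A further 13 genes passed the fold limit downward and 7 upward while overlapping the flanks.

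The rule chose genes on which the arrays at 200 and 220 min lay on the same side, so their agreement is given as a description. The median absolute difference between 200 and 220 min was 0.15 for the 481 lower genes and 0.08 for all genes tested, while the range of the 3 flanks had a median of 0.22 and 0.10; a range of 3 values is wider by construction than a difference of 2. The 220 min value was the lower in 283 genes and the 200 min value in 198. Over all genes the median absolute difference between 200 and 220 min was 0.0792, between flanking arrays 0.0544 to 0.0799, from 200 min to the flanks 0.103 to 0.117 and from 220 min to the flanks 0.0807 to 0.0878. Thus the 200 min array stood apart from the flanks over all genes more than the 220 min array did, although more of the lower genes were lower at 220 min.

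Each array was also set against flanks of its own, so that the comparisons shared no array, although both times had been chosen because they departed together. The 200 min array against the mean of 160 and 180 min, at 1.2-fold, put 516 genes lower (6.94%) and 235 higher (3.16%). The 220 min array against 240 min put 589 lower (7.92%) and 122 higher (1.64%). In both, 380 genes were lower and 10 higher, and 2 had opposite signs. The 380 shared genes were 73.6% of the first list and 64.5% of the second, an overlap that the choice of times had favoured and that is no independent support.

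**Figure D3:**
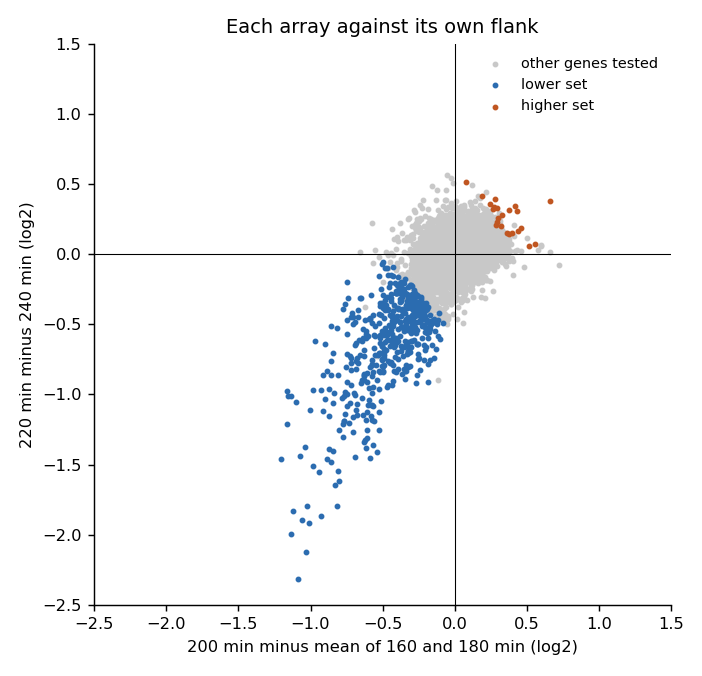
Each point is a gene, with the 200 min array minus the mean of 160 and 180 min on the horizontal axis and the 220 min array minus the 240 min array on the vertical axis, both in log2 units, with the 481 lower genes in blue, the 23 higher genes in orange and the others in grey. The blue cloud lies in the lower left and reaches beyond -2 at 220 min, whereas the orange points stay within 1 log2 unit of 0.

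For most of the lower genes both low levels lay below every other array of the course. Of the 481 lower genes 430 had both arrays below all 11 other arrays, and 32 lay within the range of the arrays from 0 to 60 min. The rule itself had set both arrays below those at 160, 180 and 240 min, and so favoured such low ranks. The count of 430 therefore describes the members and supports nothing, and no share over all genes tested is set beside it. The median deviation of the set from its flanking mean was 0.15 in untreated cells, -0.08 at 60 min, 0.14 at 120 min, -0.13 at 160 min, 0.05 at 180 min, -0.46 at 200 min, -0.49 at 220 min and 0.08 at 240 min. The next lowest times after the pair were therefore 160 and 60 min. Among the flanks 160 min was the lowest in 416 of the 481 genes (86.5%), against 36.4% of all genes tested. All 12 of the largest lower genes also read lower at 160 min than at 140 or 180 min, as Rock1 did with 9.59 against 10.10 and 9.99.

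**Figure D4:**
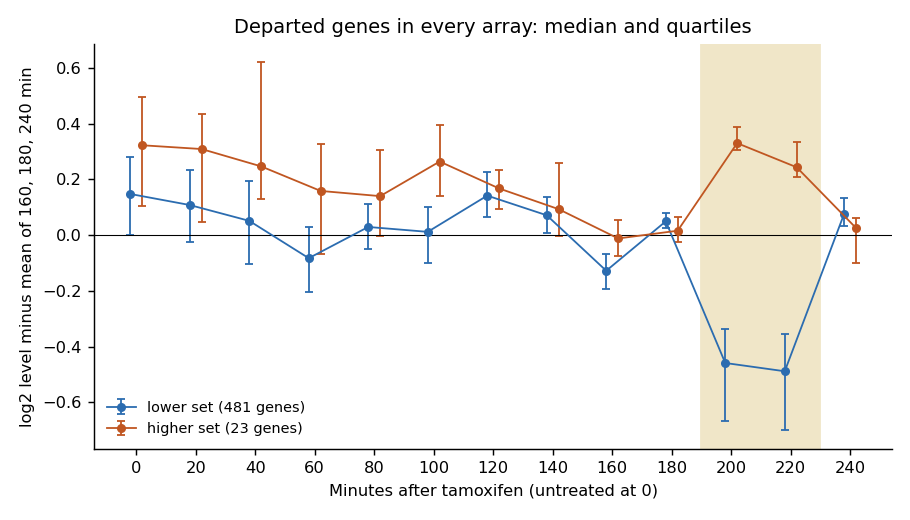
Median log2 level of the lower set (blue, 481 genes) and the higher set (orange, 23 genes) minus the mean of the 160, 180 and 240 min arrays, against minutes after tamoxifen (untreated at 0), with bars from the lower to the upper quartile of genes and 200 and 220 min shaded. The lower set stands at -0.46 and -0.49 in the shaded arrays and at 0.08 at 240 min; the higher set stands at 0.33 and 0.24 there but also at 0.32 in untreated cells.

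Return by 240 min was measured as the share of the difference that remained, taking 160 and 180 min as the level before. Since 240 min is 1 of the flanks, the rule itself admitted only genes that stood beyond their 200 and 220 min values by then, and the counts of return describe the members and support nothing. A share within 0.25 of 0 was called back, and this applied to 231 of the lower genes. A further 12 were still part way, and 238 had a share under -0.25, past the mean of 160 and 180 min. The median share was -0.25, and 409 genes were within 0.5 of 0. A negative share is relative to a low baseline, since the median deviation of the set was -0.13 at 160 min. At 240 min that deviation was 0.08, against 0.07 at 140 min, 0.14 at 120 min and 0.15 in untreated cells. At 240 min 307 lower genes (63.8%) stood above both 160 and 180 min, against 42.4% of all genes tested, and 41 stood below both. Ccne2 (-0.05) and Matr3 (-0.05), an RNA-binding protein of the nuclear matrix, were among those back. Tgfbr1 (-0.55) and Clk1 (-0.63) stood past the mean of 160 and 180 min. Mycn, a MYC-family transcription factor chosen after its values were seen, read 11.69, 11.12, 10.63, 10.91 and 12.12, so its flanks were as far apart as its departure. Of the higher genes 7 were back, 7 part way and 9 past.

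Other probe sets for the same genes were read on the same arrays. For 240 of the 481 lower genes, 380 further probe sets above the same level were on the array, and 367 of them lay on the lower side. Of these, 252 met the rule for lower by themselves. Over all genes 349 of 3960 such further probe sets (8.81%) met it, the 252 included. The median difference of the 380 was -0.38. The arrays that chose the genes also gave these values, so the agreement is no independent support. For the higher genes 7 further probe sets of 4 genes were available, all on the higher side and 0 past the rule.

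Lower genes spanned more of the genome than others. The distance from gene start to gene end in RefSeq had a median of 44.2 kb over 478 lower genes, 19.4 kb over the 23 higher genes and 21.1 kb over all genes tested. In the shortest quintile of genes, up to 7.31 kb, 0.874% were lower, and in the longest quintile, above 56.7 kb, 12.8% were. The quintiles between held 2.96%, 4.77% and 10.8%. Expression level sorted the genes less: from the dimmest to the brightest quintile 3.43%, 6.59%, 7.46%, 9.21% and 5.65% were lower.

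**Figure D5:**
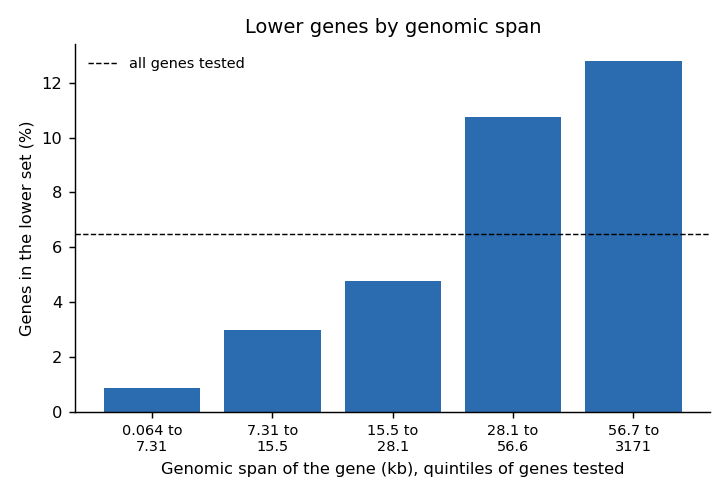
Share of genes in the lower set, in percent, by quintiles of the genomic span of the gene in kb, with a dashed line at the 6.47% of all genes tested. The share goes from 0.874% in the shortest quintile to 12.8% in the longest.

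Array controls were read at the same times. The 5′, middle and 3′ probe sets of Gapdh differed by between -0.01 and 0.01 from the flanks, and those of Actb by between -0.00468 and 0.03. All 3 control probe sets of the transferrin receptor gene Tfrc lay below the flanks, by -0.16 to -0.12. The 18 hybridisation spikes, added in fixed amount before hybridisation, had a median of -0.17 at 200 min and of -0.00458 at 220 min against the flanks. The 27 poly-A spike probe sets, for RNAs added before labelling, had a median of -0.05 at 200 min and 0.33 at 220 min. Of the 18 hybridisation spikes 3 lay below all flanks at both times, and of the 27 poly-A spike probe sets 0 did. The part of labelling and hybridisation in the result was not tested. The median intensity of the 13 arrays was 237.4 to 251.5, highest at 200 min, so the arrays had been brought to a common level, and a difference here is one relative to most other genes.

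Whether the departed genes differed earlier in the course was asked with arrays that took no part in choosing them. The 4 arrays from 80 to 140 min were set against the 3 arrays from 20 to 60 min with limma across all 7436 genes. At a Benjamini-Hochberg adjusted p of 0.05, 916 genes (12.3%) were higher and 1052 (14.1%) were lower in the middle period. Of the 481 lower genes 51 (10.6%) were higher and 35 (7.28%) were lower, shares below the background on both sides in the main setting. On the higher side this order depended on the arrays used. Without the 20 min array 14.8% of the 481 were higher, against 9.92% of all genes. The order was also reversed without the 80 or 100 min array, and was kept when any other array was left out. On the lower side it was kept whichever array was left out. Of the 23 higher genes 2 were higher and 3 were lower. The 40 min array weighed most: without it the counts over all genes were 563 and 626, and those of the lower set 33 and 17. The 35 lower genes that came down were 21 without 20 min, 59 without 60 min and 22 without 100 min.

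Cell-cycle members of the lower set were mixed in this earlier comparison, some with a call and some without. Ccne2 was 0.55 higher at 80 to 140 min than in the first hour (SE 0.08, limma adjusted p = 0.00128), and Bub1 0.55 higher (SE 0.10, adjusted p = 0.00391). Smc2 was 0.44 higher (SE 0.12, adjusted p = 0.0253) and Smc4 0.40 higher (SE 0.12, adjusted p = 0.0315). Both SMC calls were lost without the 40, 120 or 140 min array, and that of Smc4 also without the 60 min array, with the untreated array added or with its probe sets averaged. Other cell-cycle members of the lower set had no call: Mki67 differed by 0.21 (adjusted p = 0.212), Cenpf by 0.20 (adjusted p = 0.175), Pola1 by 0.15 (adjusted p = 0.188) and Rfc1 by 0.08 (adjusted p = 0.521). Dek, a chromatin-bound oncoprotein, was 0.43 higher (adjusted p = 0.0119), and Cd2ap, an actin adaptor, 0.34 higher (adjusted p = 0.012). At 200 and 220 min Ccne2 read 7.73 and 7.97, below its first-hour values of 8.07 to 8.24.

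Other members had already come down. From the first hour to 80 to 140 min Ptgs2 changed by -1.05 (SE 0.13, limma adjusted p = 0.00055), Dsc2 by -0.60 (adjusted p = 0.0105), Rptn by -0.54 (adjusted p = 0.00442) and Ereg by -0.49 (adjusted p = 0.00308). On the representative probe sets of these genes the values at 200 and 220 min lay below every value from 80 to 140 min. On a dimmer probe set Ptgs2 read 8.88 at 200 min against 8.81 at 100 min. Dsc2 likewise read 8.87 at 200 min against 8.83 at 140 min on its dimmer probe set. Ifi202b, an interferon-inducible gene, changed by -0.37 (adjusted p = 0.0342), Jmjd1c, a histone demethylase, by -0.34 (adjusted p = 0.0449), Zscan26 by -0.39 (adjusted p = 0.0488) and Nop58 by -0.19 (adjusted p = 0.0392), and each of these 4 calls was lost when 1 of several arrays was left out. In the higher set, Aldh1a3 changed by -0.82 (adjusted p = 0.00667) and Slc44a2 by 0.45 (adjusted p = 0.00228).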

How the data were processed

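Total RNA of 13 keratinocyte samples was extracted with Trizol and hybridised as biotinylated cRNA, per the labels' protocols. The authors deposited 1 intensity per probe set and array on a linear scale, covering 22690 probe sets. How probes were summarised and arrays scaled before deposit is not given in the sources used. The number of arrays limits the precision.

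Intensities were used as log2(intensity + 16). A fold on that scale understates the change of dim genes. The platform table named 1 gene for 20393 probe sets, several for 691 and none for 1606, and only the first kind was used, with 20364 symbols updated through a RefSeq table (GRCm38.p6). Each of 12394 genes was represented by its brightest probe set, and those with a mean under the 40th percentile (7.83 on the log2 scale) were left out.

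The contrast of 200 and 220 min with the flanks was described without a test. The comparison of 80 to 140 min with 20 to 60 min used limma 3.58.1 in R 4.3.3 (eBayes with intensity trend, two-sided, Benjamini-Hochberg), and was tested on simulated data. Its p-values measure only the spread between arrays. The genes named were the 12 largest departed genes in each direction, up to 3 departed members of each list with the largest difference, up to 5 per direction with a call between the earlier periods, the genes at the limit, and a fixed set of p63, keratin, reference, immediate early and noncoding genes; others were chosen after their values were seen, and RIKEN and predicted transcripts were skipped. The members and lists were chosen with earlier results of these data known. The lists held 1183 symbols, of which 1042 were on the array. Alternatives covered pseudocount, scaling, filter, probe-set choice, fold limit, flanks and omitted arrays. Cells without the fusion and a course without tamoxifen were not analysed here.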

Additional observations from a re-analysis of the deposited data

Results flagged for a closer look

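Among the 4 arrays from 80 to 140 min, Cd2ap had 1 array apart from the others: it read 10.48 at 80 min and 10.67 to 10.70 at 100, 120 and 140 min. The gap took up 0.863 of the range of the 4 values. Such a gap arises by chance in about 1 group in 20, and Cd2ap was lower at 200 and 220 min than in any of these arrays.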

How the results depend on the processing

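The count of 481 lower genes stayed within 1.5 times under 14 of 17 alternatives. It was 762 at a limit of 1.1-fold and 157 at 1.5-fold. With every probe set taken on its own, 830 probe sets were lower (269 of those at 1.5-fold). That count is out of more probe sets than there were genes, so it is not directly comparable with 481. The 23 higher genes were less settled: 9 with arrays centred on their medians or with a pseudocount of 64, 11 with a filter at the 60th percentile, 780 at 1.1-fold, 0 at 1.5-fold, 47 with flanks interpolated in time, 37 with 140 min in place of 160 min, an alternative chosen after seeing the data, and 29 to 256 when 1 of the 5 arrays was left out. Genes back at 240 min numbered 409 with limits of -0.5 and 0.5. Without the 40 min array the comparison of the middle period with the first hour called 563 higher and 626 lower genes, and omissions of each array gave 563 to 884 higher and 626 to 1056 lower. Of the lower set, 29 were higher in the middle period with the 60th percentile filter and 53 were lower with the untreated array added; omissions gave 33 to 71 higher and 17 to 59 lower. Raly reversed to -0.14 with 140 min among the flanks. Differences of the 12 largest genes in each direction held within the SD pooled over both sides in 313 of 328 runs. Other named genes were not put through these runs. List counts stayed within 1.5 times, or stayed at 0, in 66 of 80 runs. Calls of named genes between the earlier periods were kept in 157 of 190 runs and lost in 33. Probe sets below the filter on dim signals carry little information. No paired analysis was possible because each time has 1 array and the labels number no replicates.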
